A study of Mus musculus with 4 samples.

Results

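The genes that make, sense and move cholesterol were followed in the epididymal fat of mice that lacked 2 microRNAs in adipocytes. The module is a list of 32 genes grouped by their known function. It holds 18 enzymes of the synthesis route, 6 genes that control the SREBP transcription factors and 8 genes of cholesterol uptake, efflux and transport. Of these, 29 were represented by a probe set naming that gene alone, among 22180 such genes on the array. Acat2, Idi1 and Soat1 had none and have no expression values here.

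The study deleted Mir221 and Mir222, neighbouring microRNA genes, and measured mRNA on GeneChip Mouse Gene 2.0 ST arrays. There were 4 groups of male C57BL/6J mice sampled at 16 weeks of age, with 1 mouse and 1 array in each group. The flox/y controls carried the floxed Mir221/222 allele on their single X chromosome, and the AdipoKO mice carried the same allele deleted by a Cre recombinase driven by the adiponectin promoter. Each genotype was fed standard (STD) chow or high fat-high sucrose (HFHS) chow. The deletion is therefore limited to adipocytes, whereas the RNA came from the whole fat pad with its vessels, fibroblasts and macrophages. In such bulk RNA, fewer cells of a type and less RNA per cell cannot be told apart. The source field of the labels names another microRNA line and gives both flox/y arrays the other chow, so groups were taken from titles, descriptions and genotypes, which match one another. Lep, the leptin gene of adipocytes, was higher by 1.83 on the log2 scale on the HFHS array of the flox/y pair and by 2.49 in the AdipoKO pair.

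Cells build cholesterol from acetyl-CoA through mevalonate, squalene and lanosterol. When sterols in the endoplasmic reticulum fall, the escort protein SCAP carries SREBP2 to the Golgi, where it is cut by proteases and released to activate the genes of the route. INSIG proteins hold SCAP back when sterols are plentiful. Adipocytes make little of their own cholesterol and store much that they take up, largely as free cholesterol in the membranes and the surface of the lipid droplet.

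SREBP2 acts through sterol elements in promoters, so the promoter windows of the members (250 bases before to 50 after the RefSeq start, GRCm38.p6) were searched on both strands for 1 form of that element, TCACNCCAC, and for CCAAT, the box of its partner NF-Y. The sterol element was found in 408 of 32851 mouse windows (1.24%). Among the members, 25 had a window, and the element was found in 1 of their 31 windows, that of Hmgcs1. CCAAT was found in 37.4% of all windows and in 61.3% of the 31 windows of the members. By gene, 14 of 15 enzymes had a match in some window. A gene can have several windows and no share by gene was computed for all genes, so that count has no background. A match is a description of the letters and not a site. The window of Hmgcs1 (chr13:119690101-119690400, plus strand) is shown because it holds the sterol element. That of Nsdhl (chrX:72918271-72918570, plus strand) is shown because Nsdhl had the highest HFHS over STD ratio of the AdipoKO pair. Nsdhl was chosen after its values were seen. Capitals mark matches to the sterol element or to CCAAT, which reads ATTGG where it lies on the other strand.
Hmgcs1: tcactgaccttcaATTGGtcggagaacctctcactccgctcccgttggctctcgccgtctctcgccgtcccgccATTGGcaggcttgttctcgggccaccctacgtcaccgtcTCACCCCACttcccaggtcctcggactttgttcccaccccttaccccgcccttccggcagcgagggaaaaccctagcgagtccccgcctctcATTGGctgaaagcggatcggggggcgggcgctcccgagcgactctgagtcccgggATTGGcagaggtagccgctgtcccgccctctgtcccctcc
Nsdhl: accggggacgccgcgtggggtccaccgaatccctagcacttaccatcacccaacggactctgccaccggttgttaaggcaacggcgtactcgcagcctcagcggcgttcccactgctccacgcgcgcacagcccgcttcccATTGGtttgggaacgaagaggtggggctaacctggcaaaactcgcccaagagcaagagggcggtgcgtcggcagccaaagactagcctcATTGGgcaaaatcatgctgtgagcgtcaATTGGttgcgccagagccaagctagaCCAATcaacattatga
The sterol element of Hmgcs1 begins 137 bases before the start, and its CCAAT matches include 1 that begins 45 bases before it. The Nsdhl window holds CCAAT matches and no match to TCACNCCAC.

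The mature forms of the deleted microRNAs are shown because they share a seed, the bases that pair with a target (capitals), and because Insig1 is the only member on the study's list of their predicted targets. The sequences are those of RefSeq (GRCm38.p6), and both lie on the minus strand of chromosome X, mmu-miR-221-3p at chrX:19146307-19146329 and mmu-miR-222-3p at chrX:19146901-19146923.
mmu-miR-221-3p: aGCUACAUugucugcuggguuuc
mmu-miR-222-3p: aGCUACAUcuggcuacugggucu
The probe sets named Mir221 and Mir222 were below the background floor on all 4 arrays, so they do not check the genotype labels. On the log2 scale Mir221 was at 5.09 in STD flox/y, 3.64 in STD AdipoKO, 3.74 in HFHS flox/y and 4.04 in HFHS AdipoKO, and Mir222 at 5.59, 3.95, 3.61 and 4.08.

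All values are the deposited normalized expression values, on the log2 scale unless called linear. The floor of each array was the 60th percentile of its probe sets, between 5.89 and 5.91, and the 10568 genes whose mean reached the average floor were called measured. Of the members, 27 were measured, and Dhcr7 and Stard4 fell below that filter. The adipocyte markers (9 of 9) were above the floor on every array, and the epididymis epithelium markers (0 of 5) on none. The HFHS flox/y array stood apart in its hepatocyte transcripts. On it 11 of 11 hepatocyte markers exceeded the floor, against 7 in STD flox/y, 8 in STD AdipoKO and 6 in HFHS AdipoKO. Alb, the albumin gene, was at 12.21 there and at 8.69, 9.83 and 8.17 on those other 3 arrays, and the summed linear expression of the list was 17514 against 7337 to 8954. Cyp2e1, which fat also expresses, made up 5779 to 7762.5 of each sum. The summed macrophage markers were also highest there, at 6707 against 4695 to 5405 elsewhere, with 11 of 11 above the floor on each array. Fibroblast markers summed to 8332 there and to between 6465 and 7136 elsewhere. Mesothelial markers were lower on HFHS chow in both genotypes, with sums of 1931 in STD flox/y and 1585 in STD AdipoKO against 1354 in HFHS flox/y and 1184 in HFHS AdipoKO, and 5 or 6 of 6 above the floor on each array. Their median log2 ratio was -0.54 in flox/y and -0.35 in AdipoKO. The part of these other cells in the ratios of the members was not tested.

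**Figure D1:**
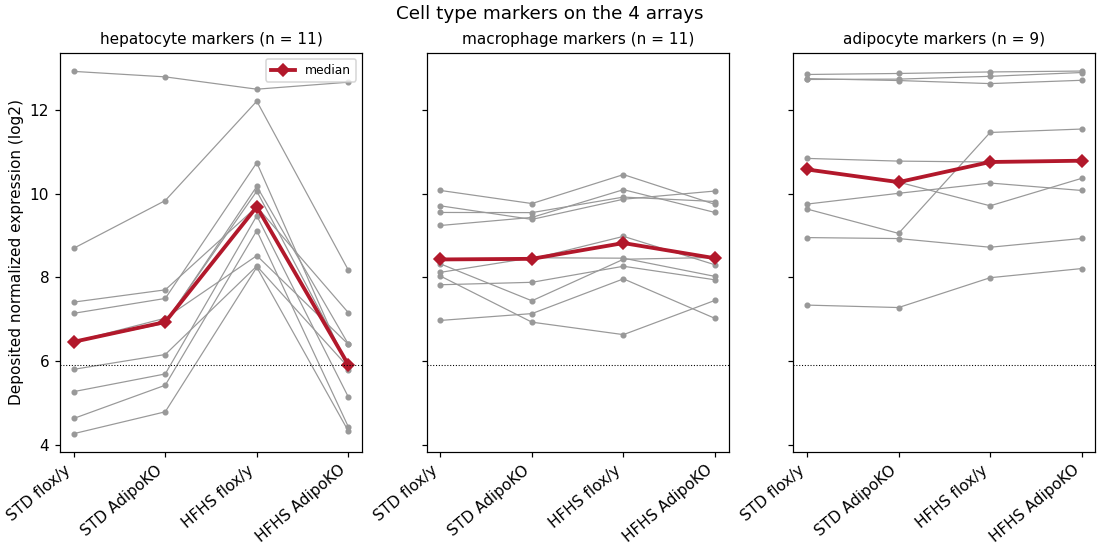
Each grey line is 1 marker gene and the red line the median of its list, with the normalized expression (log2) on the vertical axis, the 4 arrays on the horizontal axis and the average background floor dotted. The hepatocyte median was 9.69 in HFHS flox/y and between 5.91 and 6.93 on the other arrays, while the adipocyte median stayed between 10.28 and 10.79.

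On HFHS chow some members were higher and others lower, in both genotypes. In flox/y and in AdipoKO, HFHS over STD ratios of 1.5-fold or more were found for Nsdhl of the synthesis route, the lysosomal carrier Npc2 and the lipoprotein receptor Scarb1. Lss passed 1.5-fold in both genotypes on the deposited values, but its values on both STD arrays were below the floor. Its AdipoKO ratio is at least 1.42-fold when the dim array is set to its floor, so it is left out of this list. Hmgcs1, at the head of the route, and Npc1 were lower by 1.5-fold or more in both genotypes. With 1 mouse a group, each ratio compares 2 arrays and has no replicate error.

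**Figure D2:**
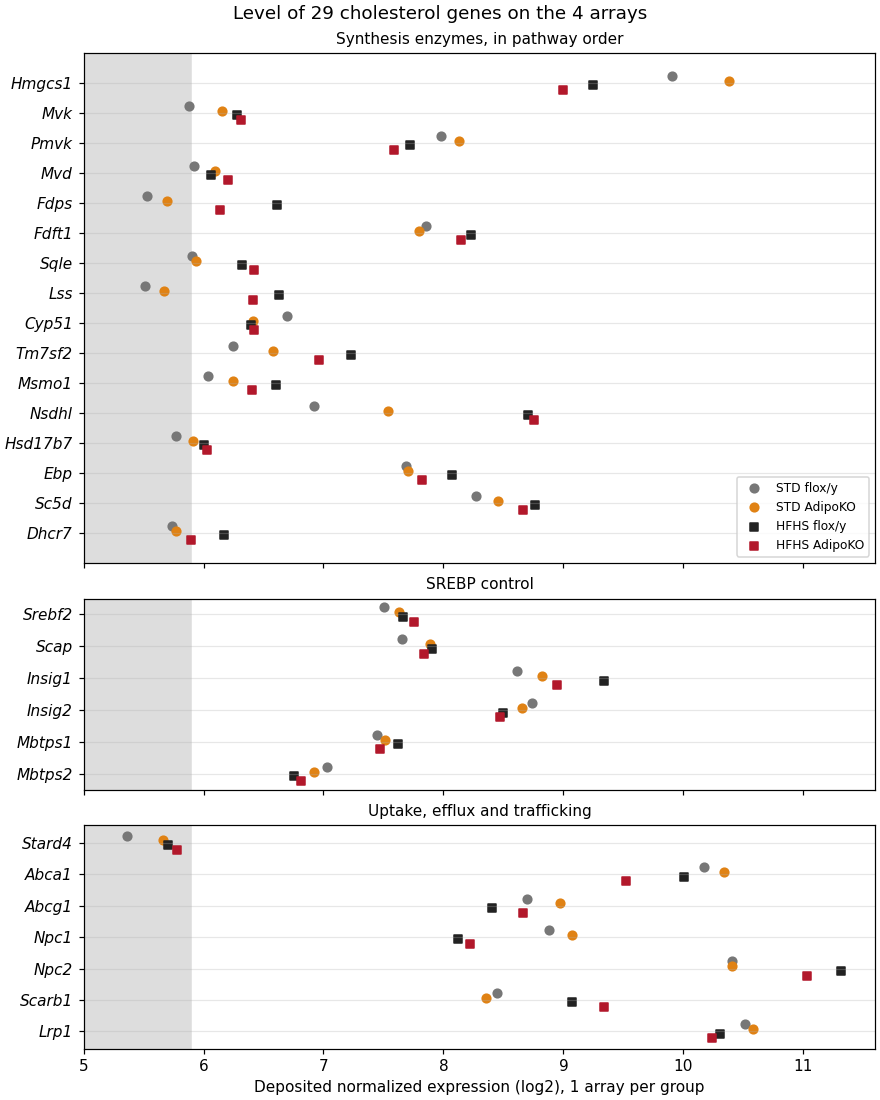
Points give the normalized expression (log2, horizontal axis) of 29 genes on the 4 arrays, circles for STD and squares for HFHS chow, and the grey band lies below the average background floor. Both Nsdhl squares lie to the right of both circles and both Hmgcs1 squares to the left, and Stard4 lies in the band on all arrays.

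Hmgcs1 and Pmvk were lower on HFHS chow in both genotypes. In flox/y 13 of the 16 enzymes had a ratio above 0, where 48.8% of all measured genes did. Of the 13, Mvk, Fdps, Lss, Hsd17b7 and Dhcr7 were below the floor in STD flox/y, so their signs are no support. Hmgcs1 makes HMG-CoA, the precursor of mevalonate. Its linear expression was 959.8 in STD flox/y, 1329.6 in STD AdipoKO, 607 in HFHS flox/y and 512 in HFHS AdipoKO. Both HFHS arrays lay below both STD arrays. The gene was 1.58-fold lower on HFHS chow in flox/y and 2.60-fold lower in AdipoKO. Pmvk, the second kinase of the mevalonate steps, had log2 ratios of -0.26 and -0.54 in the same order. Mvk, the first of these kinases, had 0.40 and 0.15 and was below the floor in STD flox/y, which makes the former ratio at least 1.32-fold. Mvd, the decarboxylase that closes the mevalonate steps, was within 0.14 of 0 in both.

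Among the enzymes the highest ratio was that of Nsdhl, of the later steps. Nsdhl encodes a decarboxylating dehydrogenase that helps remove the methyl groups of lanosterol and lies on chromosome X (72918521 to 72958528, GRCm38.p6). Its linear expression was 121 in STD flox/y, 186 in STD AdipoKO, 416 in HFHS flox/y and 432 in HFHS AdipoKO. Both HFHS arrays were above both STD arrays, with ratios of 3.43-fold in flox/y and 2.33-fold in AdipoKO. This was the highest ratio of all members in each genotype.

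Lss folds squalene epoxide into lanosterol. It was at 5.52 in STD flox/y and 5.67 in STD AdipoKO, both below the floor, and at 6.63 in HFHS flox/y and 6.41 in HFHS AdipoKO. Against the floor it was at least 1.67-fold higher on HFHS chow in flox/y and at least 1.42-fold higher in AdipoKO. Fdps, which makes farnesyl diphosphate at the branch to other isoprenoids, was at 5.53 and 5.69 on STD chow, below the floor, and at 6.61 in HFHS flox/y and 6.14 in HFHS AdipoKO. These give at least 1.65-fold and at least 1.18-fold. Tm7sf2, a sterol reductase, was at 6.25 in STD flox/y, 6.58 in STD AdipoKO, 7.23 in HFHS flox/y and 6.96 in HFHS AdipoKO, a ratio of 1.98-fold in flox/y and 1.30-fold in AdipoKO.

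The remaining enzymes had smaller ratios in flox/y. Sqle, the squalene epoxidase and a rate-limiting enzyme of the route, had log2 ratios of 0.42 in flox/y and 0.48 in AdipoKO, and Fdft1, the squalene synthase, 0.37 and 0.35. Both thus had nearly equal ratios in the 2 genotypes. Sqle lay just above the floor on both STD arrays, at 5.90 in STD flox/y and 5.94 in STD AdipoKO. Msmo1, which oxidises the methyl groups of sterols, had 0.57 and 0.16, Sc5d, a desaturase, 0.50 and 0.20, and Ebp, an isomerase, 0.38 and 0.12. Hsd17b7, a ketosteroid reductase, had 0.24 and 0.11, with STD flox/y below the floor. Dhcr7, of the last step to cholesterol, was above the floor only in HFHS flox/y, at 6.17, at least 1.21-fold over STD flox/y, and both AdipoKO arrays were below it. Cyp51, the lanosterol demethylase, was alone among the sterol enzymes in a negative ratio, -0.31 in flox/y, against 0.01 in AdipoKO.

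Over the 16 enzymes with values, the median HFHS over STD ratio was 0.41 in flox/y, with 13 above 0. In AdipoKO it was 0.16 with 13 above 0 over 15 enzymes, leaving out Dhcr7. The median of all measured genes was -0.01 in flox/y, with 48.8% above 0, and -0.02 in AdipoKO, with 47.6% above 0. Both enzyme counts include Fdps and Lss, which were below the floor on both STD arrays. In flox/y they also include Mvk, Hsd17b7 and Dhcr7, below the floor in STD flox/y. The signs of these genes above 0 are no support, and the sizes of their ratios are not readable.

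The SREBP control genes had smaller ratios. Insig1, an endoplasmic reticulum anchor of SCAP and itself a known SREBP target, was at 8.62 in STD flox/y, 8.82 in STD AdipoKO, 9.34 in HFHS flox/y and 8.95 in HFHS AdipoKO. HFHS flox/y was thus the highest array, 1.65-fold above STD flox/y, while the AdipoKO pair differed by 1.09-fold. Insig2, its paralog, was at 8.74, 8.66, 8.49 and 8.47 on the same 4 arrays and had ratios of -0.25 and -0.19. Srebf2, the gene of SREBP2, was at 7.50, 7.63, 7.67 and 7.75, with ratios of 0.17 and 0.13. The escort gene Scap had ratios of 0.25 and -0.05, and its second probe set was below the floor on all arrays. The proteases that cut the SREBPs gave 0.17 and -0.04 for Mbtps1 and -0.27 and -0.10 for Mbtps2. The median of the 6 genes was 0.17 in flox/y and -0.05 in AdipoKO.

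The trafficking genes went in both directions. Npc2, a soluble lysosomal protein that hands cholesterol to NPC1, had a linear expression of 1356 in STD flox/y, 1352 in STD AdipoKO, 2547 in HFHS flox/y and 2096 in HFHS AdipoKO. Its HFHS over STD ratio was 1.88-fold in flox/y and 1.55-fold in AdipoKO, and both STD arrays lay close together. Scarb1, which encodes the HDL receptor SR-BI, was at 348, 326, 537 and 647, with ratios of 1.54-fold in flox/y and 1.98-fold in AdipoKO, and both HFHS arrays lay above both STD arrays.

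Npc1, the membrane protein that exports cholesterol from the lysosome, was at 471 in STD flox/y, 538 in STD AdipoKO, 279 in HFHS flox/y and 299 in HFHS AdipoKO. It was 1.69-fold lower on HFHS chow in flox/y and 1.80-fold lower in AdipoKO, the direction opposite to that of Npc2. A second Npc1 probe set lay below the floor on all arrays, between 4.69 and 5.02.

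Abca1, which passes cholesterol to lipid-poor apolipoproteins, was at 1152 in STD flox/y, 1293 in STD AdipoKO, 1029.6 in HFHS flox/y and 734 in HFHS AdipoKO. HFHS AdipoKO was the lowest array, 1.76-fold below STD AdipoKO, while the flox/y pair differed by 1.12-fold. Abcg1, which loads HDL particles, had log2 ratios of -0.29 and -0.31, and Lrp1, a large endocytic receptor of lipoprotein remnants, -0.20 and -0.34. Stard4, a cytosolic sterol carrier, was below the floor on all 4 arrays, between 5.36 and 5.78, and is given no fold. The median of the other 6 trafficking genes was -0.18 in flox/y and -0.33 in AdipoKO.

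In flox/y, 7 of the 27 measured members were at least 1.5-fold higher on HFHS chow (Fdps, Lss, Tm7sf2, Nsdhl, Insig1, Npc2 and Scarb1), where 5.16% of all measured genes were, and 2 were lower (Hmgcs1 and Npc1), where 7.36% were. In AdipoKO, 4 members were higher (Lss, Nsdhl, Npc2 and Scarb1), against a background of 3.61%, and 3 lower (Hmgcs1, Abca1 and Npc1), against 3.76%. Fdps and Lss were below the floor on both STD arrays and passed the filter on the mean through their HFHS values, so their places in these counts are no support for a difference. The other members counted were above the floor on all 4 arrays.

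The chow ratios of flox/y and AdipoKO share no array. Over the 27 members with at least 1 array of each pair above its floor, they had the same sign for 88.9%. Of these members 16 were above 0 and 8 below 0 in both. The share was 62.9% of all measured genes, which were chosen by their mean level instead. Fdps and Lss entered only through their HFHS values, as did Mvk and Hsd17b7 in flox/y, so these signs are no support for agreement. The 3 of opposite sign were Cyp51, Scap and Mbtps1. The ratio was larger in flox/y than in AdipoKO for 22 of the 27, and for 51.6% of all measured genes. The flox/y ratio contains the HFHS flox/y array, and the AdipoKO ratio does not. Hepatocyte markers differed in both, with a median log2 ratio of 3.59 in flox/y and -0.55 in AdipoKO, where 11 of 11 were below 0. Their part in the ratios of the members was not tested.

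**Figure D3:**
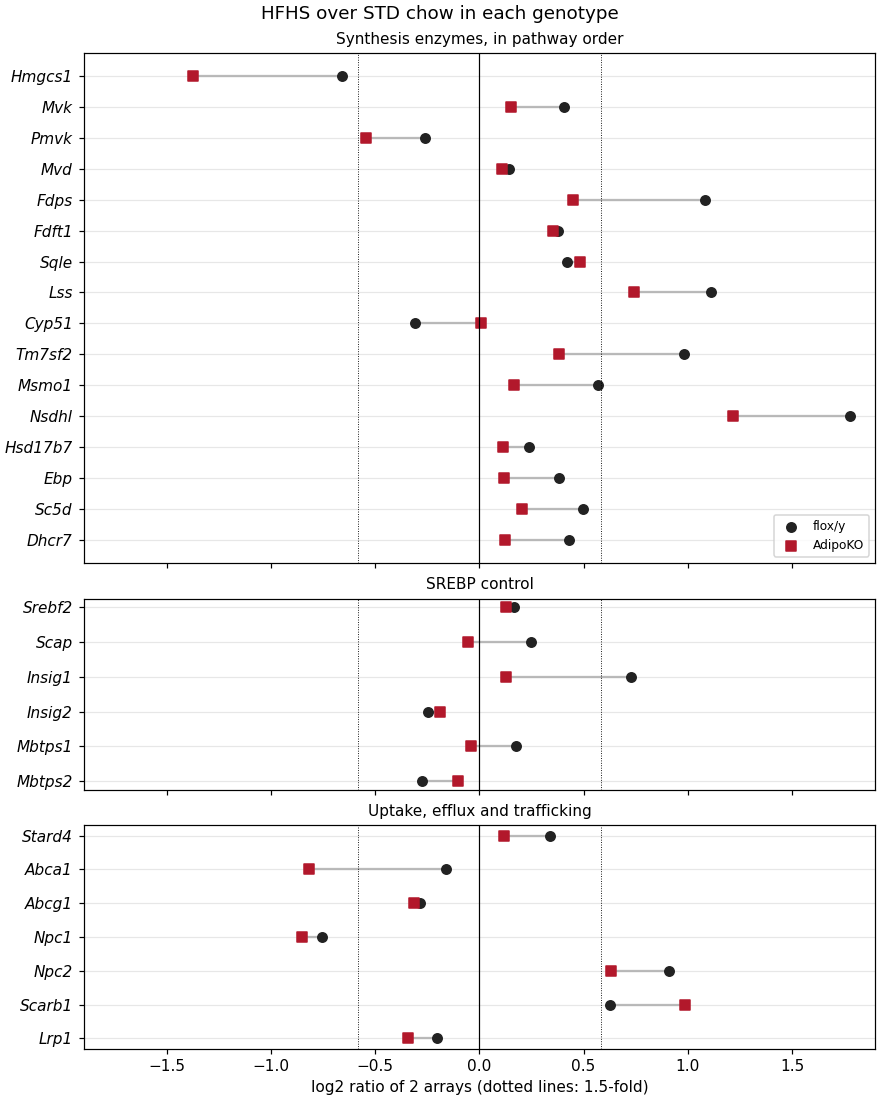
For each gene the horizontal axis gives the log2 ratio of the HFHS over the STD array, as a black circle for flox/y and a red square for AdipoKO, with 1.5-fold marked by dotted lines. Nsdhl has the highest ratio in both genotypes (1.78 and 1.22) and Hmgcs1 the lowest in AdipoKO (-1.38).

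Chow was tested over both HFHS mice and both STD mice, by limma with genotype as a term and 1 residual degree of freedom, so that the genotype by chow interaction served as error. With Benjamini-Hochberg adjustment it called 0 of 10568 genes (0%), the lowest adjusted p being 0.321. At an unadjusted p under 0.05 there were 619 genes higher (5.86%) and 782 lower (7.4%). Among the 27 measured members 8 were higher and 2 lower at that level, and none of them holds after adjustment (adjusted p from 0.328 to 0.838 over the members). Without genotype as a term limma called 1 gene for chow, Inmt, which is no member, and the lowest adjusted p of a member was 0.121.

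Nsdhl had the lowest unadjusted limma p of the members, 0.00199, with a log2 difference of 1.497 (SE 0.189) between HFHS and STD chow and an adjusted p of 0.328. The other members higher at an unadjusted p under 0.05 were Npc2 (0.77, SE 0.12), Scarb1 (0.81, SE 0.15), Sqle (0.45, SE 0.11), Tm7sf2 (0.68, SE 0.20), Fdft1 (0.36, SE 0.12), Lss and Fdps. For Lss and Fdps both STD values are below the floor, so the fitted difference is not given. For Sqle both STD values lie just above the floor. The members lower were Npc1 (-0.80, SE 0.12) and Hmgcs1 (-1.02, SE 0.22). For each of these 10 genes both HFHS arrays lay on the same side of both STD arrays. The genes were picked by a test on the same arrays, with the genotype by chow interaction as error. Such a choice favours this ordering, so it is no separate support for a chow difference. Lss and Fdps moreover passed the filter on the mean through their HFHS values.

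Loss of Mir221/222 in adipocytes went with small ratios in this module. On STD chow Nsdhl alone reached 1.5-fold between AdipoKO and flox/y, at 1.53-fold higher, and on HFHS chow no member did. Across all measured genes 1.2% were at least 1.5-fold higher in AdipoKO on STD chow and 2.65% lower, and on HFHS chow 2.21% were higher and 2.38% lower. The STD comparison does not use the HFHS flox/y array, where the hepatocyte sum was highest, and the HFHS comparison does. Hepatocyte transcripts also differed on STD chow, with a median log2 AdipoKO over flox/y ratio of 0.44 and 10 of 11 markers above 0. Their part in the ratios of the members was not tested. The genotype ratios share arrays with the chow ratios above and add no separate mice.

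On STD chow most enzymes were slightly higher in AdipoKO. Fdps, Lss and Dhcr7 were below the floor on both STD arrays and have no readable sign. Of the other 13 enzymes 11 had a ratio above 0, with a median of 0.17, where 49.95% of all measured genes were above 0 with a median of 0. After Nsdhl the highest ratios were those of Hmgcs1 (0.47), Tm7sf2 (0.33) and Mvk (0.28), the last from a flox/y value below the floor. Cyp51 at -0.28 and Fdft1 at -0.06 were the enzymes with a negative ratio. The SREBP control genes lay between -0.11 and 0.23 with a median of 0.09, and the 6 trafficking genes above the floor between -0.09 and 0.28 with a median of 0.12. With 1 mouse on each side the size of these ratios cannot be set against the spread between mice.

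On HFHS chow the enzymes had a median of -0.12, with 6 of 16 above 0, where 49.3% of all measured genes were. The lowest were Fdps at -0.47, Tm7sf2 and Dhcr7 at -0.27, Hmgcs1 and Ebp at -0.25 and Lss at -0.21. On STD chow Tm7sf2 was at 0.33, Hmgcs1 at 0.47 and Ebp at 0.02, and the others were below the floor. Insig1, the predicted target, was at -0.39, that is 1.31-fold lower in AdipoKO, after being 1.16-fold higher in AdipoKO on STD chow. Insig2 was 1.02-fold lower in AdipoKO on HFHS chow and 1.06-fold lower on STD chow. Abca1 had the lowest ratio of the members, -0.49, against 0.17 on STD chow, and Scarb1 the highest, 0.27, against -0.09. The hepatocyte markers had a median of -3.92 in the same comparison, macrophage markers -0.36 and fibroblast markers -0.72.

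The genotype ratios on the STD and HFHS chows share no array either. They had the same sign for 44.0% of the 25 members above the floor in each pair and 42.7% of all measured genes. Abcg1, which loads HDL, was 1.22-fold higher in AdipoKO on STD chow and 1.19-fold higher on HFHS chow.

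**Figure D4:**
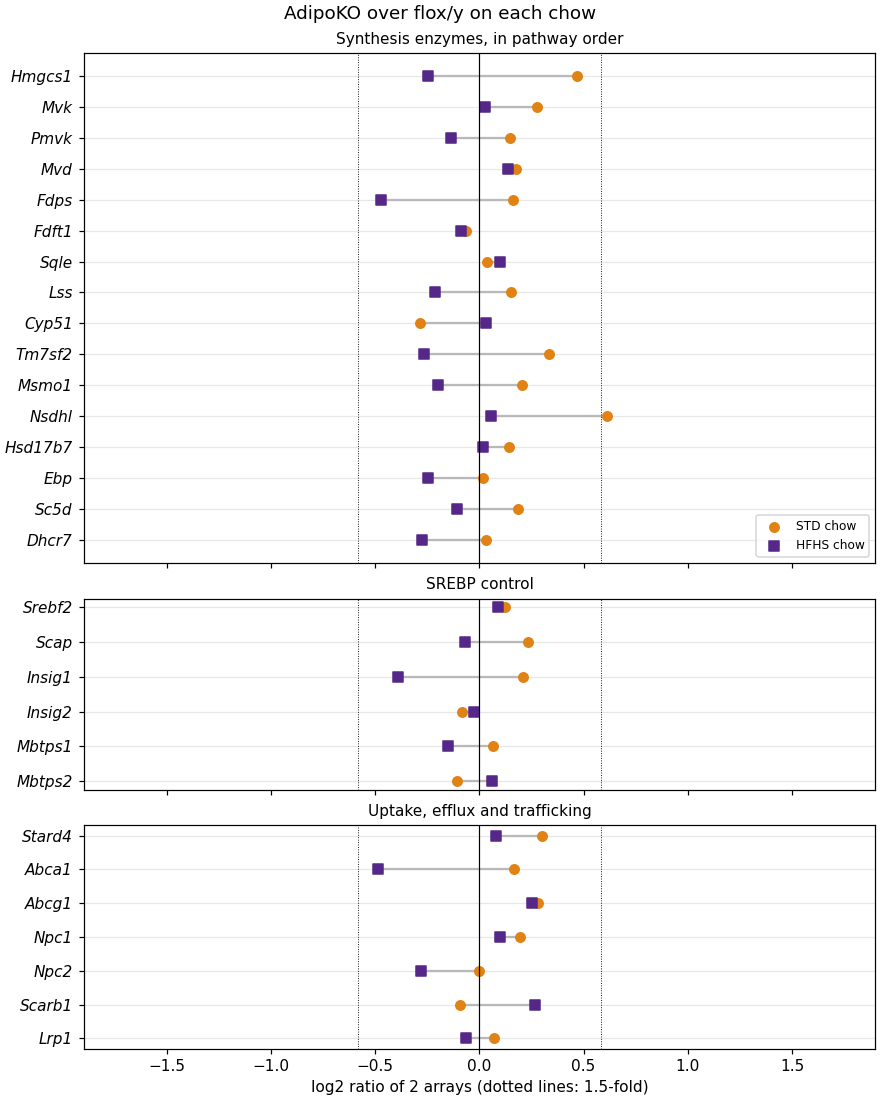
For each gene the horizontal axis gives the log2 ratio of the AdipoKO over the flox/y array, as an orange circle on STD chow and a purple square on HFHS chow, with 1.5-fold marked by dotted lines. Nsdhl on STD chow (0.61) is the only point past 1.5-fold. The HFHS square lies left of the STD circle for 24 of 29 genes, as the ratio does for 51.6% of all measured genes. Among the 24 are Fdps, Lss, Dhcr7 and Stard4, with both STD values below the floor. This is the same contrast as the larger chow ratio in flox/y and no second result.

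In the limma test of genotype, with chow as a term, 0 of 10568 genes were called (0%) and the lowest adjusted p was 1. At an unadjusted p under 0.05 there were 69 genes higher in AdipoKO (0.653%) and 98 lower (0.927%), and no member was among them. Abcg1 had the lowest unadjusted limma p of the members, 0.09, with a log2 difference of 0.27 (SE 0.12) and an adjusted p of 1.

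Genes next to the module were read from lists of the regulators and branches of the route. Srebf1, which encodes SREBP1, was at 6.81 in STD flox/y, 6.96 in STD AdipoKO, 7.77 in HFHS flox/y and 7.34 in HFHS AdipoKO. Its HFHS over STD ratio was 1.94-fold in flox/y and 1.31-fold in AdipoKO, a pattern of larger flox/y ratio like that of Insig1. Nr1h3, the gene of the oxysterol receptor LXR alpha, was at 7.66, 7.87, 7.47 and 7.70, and Nr1h2 had no probe set of its own. Lpcat3, a phospholipid remodelling enzyme and known LXR target, was 0.69 higher on the log2 scale on HFHS chow in flox/y and 0.67 in AdipoKO.

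The isoprenoid branch leaves the route after Fdps to make the lipid anchors of proteins and the tail of ubiquinone. None of its 12 measured genes reached 1.5-fold in any of the 4 comparisons, where between 1.2% and 7.36% of all measured genes did in each direction, so that 0 of 12 is near the background. Ggps1, which makes geranylgeranyl diphosphate, was at 375 in STD flox/y, 322 in STD AdipoKO, 256 in HFHS flox/y and 253 in HFHS AdipoKO on the linear scale.

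A list of fatty acid synthesis genes was set beside the module. In flox/y 7 of their 20 measured genes were at least 1.5-fold higher on HFHS chow and 2 lower, against 5.16% and 7.36% of all measured genes, and in AdipoKO 8 were higher and 2 lower, against 3.61% and 3.76%. On the linear scale Fasn, the fatty acid synthase, was at 828 in the STD control, 1975 in STD AdipoKO, 3410 in the HFHS control and 3173 in HFHS AdipoKO. On the same arrays Pnpla3, a lipid droplet hydrolase gene, was at 92.6, 161, 539 and 582. The median HFHS over STD ratio of this list was 0.29 in flox/y and 0.14 in AdipoKO, against 0.41 and 0.16 for the cholesterol enzymes. The cholesterol medians include enzymes below the floor on STD chow, whose ratios are not readable in size. The fatty acid genes were above the floor on every array, so the medians of the lists are not alike. The difference between the lists was not tested.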

How the data were processed

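The authors deposited normalized log2 expression values of 41345 probe sets for 4 arrays of 1 mouse each. Summarization, background correction and normalization are not given in the sources used here, and arrays have no read depth. The number of arrays and the background limit the precision. Array medians lay between 5.39 and 5.42 and values between 1.99 and 13.43. The platform annotation gave 1 symbol to 23521 probe sets, several to 1820, which were not named, and none to 16004. A gene was read from its probe set with the highest mean. Ratios are differences of log2 values, and linear values are 2 raised to them. A value below the floor (60th percentile of its array) was set to the floor for folds written "at least". Counts took ratios of at least 1.5-fold with the brighter array at or above its floor.

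Chow and genotype were tested with limma 3.58.1 (R 4.3.3, eBayes with trend, Benjamini-Hochberg over 10568 measured genes), after the fit was tested on simulated data. Alternatives were quantile normalization, median centring, other floors, a 2-fold limit, the mean of all probe sets and other limma settings. All members were named, and from the other lists the regulators and up to 4 genes with the largest difference in any comparison. The members and lists were chosen with earlier results of these data known.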

Additional observations from a re-analysis of the deposited data

Results flagged for a closer look

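Some genotype ratios had opposite signs on the 2 chows. The log2 ratio of AdipoKO over flox/y on STD chow minus that on HFHS chow was 0.72 for Hmgcs1, 0.60 for Tm7sf2 and 0.60 for Insig1. It was 0.28 for the median of the synthesis enzymes, 3 of them below the floor on both STD arrays, and 0.14 for the median of the SREBP control genes. The median HFHS over STD ratio of the SREBP control genes was above 0 in flox/y and below 0 in AdipoKO, a difference of 0.22. With 1 mouse a group none of these differences was tested, and each uses the HFHS flox/y array, on which 11 of 11 hepatocyte markers exceeded the floor. Samples far from their group could not be sought, as each group holds 1 mouse.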

How the results depend on the processing

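Of the recomputed counts, medians and tests of the comparisons 92 stayed and 8 moved, a count being held to have moved when it differed by over 1.5 times. Of the recomputed ratios of single members 447 stayed and 17 moved. No member's ratio past 1.5-fold turned its sign under the alternatives run. With the floor at the 75th percentile 4 members were higher on HFHS chow in flox/y. At 2-fold there were 3 members higher and 0 lower in flox/y (of the 3, Fdps and Lss are at least 1.65-fold and 1.67-fold against the floor, which leaves Nsdhl), 1 higher and 1 lower in AdipoKO, and on STD chow 0 higher in AdipoKO than in flox/y. With the mean of all probe sets, 1 member was lower on HFHS chow in flox/y, because Npc1, averaged with its probe set below the floor, came to -0.53. Without genotype as a term, limma called 1 gene for chow at an adjusted p under 0.05. Quantile normalization and centring moved the median ratio of all measured genes to at most 0.05. Using bounds at the floor was added after seeing the data. Low values limit Mvk, Fdps, Lss, Hsd17b7, Dhcr7 and Stard4. Sqle on both STD arrays and Mvd in STD flox/y lay just above the floor. No replicate was left out in turn, since each group holds 1 mouse and the limma model with both terms has no residual degree of freedom on 3 arrays. No paired analysis was possible because the labels give each group 1 mouse.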

Other observations

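Genes that turn cholesterol into oxysterols, bile acid precursors and esters included some that stood out on the HFHS flox/y array. Cyp7b1, an oxysterol hydroxylase that did not pass the filter on mean level, had a linear expression of 156 there and was below the floor on the other 3 arrays, at 34.2 in STD flox/y, 39.5 in STD AdipoKO and 37.4 in HFHS AdipoKO. In flox/y its HFHS value was at least 2.64-fold higher than the STD value, and no fold is given in AdipoKO. Lcat, the plasma enzyme that esterifies cholesterol on HDL, was at 150.3 in HFHS flox/y and between 81.6 and 87.2 elsewhere. On the same array 11 of 11 hepatocyte markers exceeded the floor, and their part in these values was not tested.

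Cyp27a1, the sterol 27-hydroxylase, was at 235 in STD flox/y, 338 in STD AdipoKO, 332 in HFHS flox/y and 252 in HFHS AdipoKO, so that its genotype ratio was 0.52 on STD chow and -0.40 on HFHS chow. Ces1d, a carboxylesterase, was at 684, 560.0, 392 and 410 on the same 4 arrays, and both HFHS arrays lay below both STD arrays. Nceh1, a cholesteryl ester hydrolase, was at 91.1, 75.4, 90.2 and 62.5, lower in AdipoKO on both chows, with a log2 difference of -0.40 (SE 0.13) and an adjusted p of 1 in the limma test of genotype. Among the genes of sterol sensing and transport, Stard5 was 0.59 lower on the log2 scale on HFHS chow in AdipoKO, and Cav1, the caveolin of adipocyte membranes, was at 1150, 1032, 1608 and 1536.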
